A study of Mus musculus with 72 samples.

Results

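Cells take up, store, release and sense iron through a small set of proteins, and 10 of their genes were followed here in mouse whole blood during and after lead (Pb) exposure: Tfrc, Hfe, Steap3, Slc11a2, Cybrd1, Slc40a1, Ireb2, Aco1, Fth1 and Ncoa4. The genes were chosen by name. All 10 had at least 1 probe set (a set of array probes for 1 transcript) that the platform annotation pairs with that symbol alone, and all 10 were among the 12588 genes that passed the filter on low values, of 18193 genes with such a probe set. Each gene was represented by its probe set with the highest mean over all arrays. Its other probe sets, apart from array controls, served as a check.

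The animals were female Balb/c mice, 9 weeks old at the start, with no transgene named in the labels. Lead acetate trihydrate was given in their drinking water for 2 weeks, with 0 µg/mL for controls, 5 µg/mL as the low and 50 µg/mL as the high dose, and was followed by 2 weeks on water without Pb. After this recovery 7 control, 15 low-dose and 13 high-dose samples were taken, and directly after the exposure 7 control, 15 low-dose and 15 high-dose samples, each on 1 array. All exposed mice had already been bled at the first collection, against 7 control mice, and the labels do not say which control mice gave the second sample. All samples were depleted of globin transcripts, and the fits treat the 72 arrays as independent.

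Transferrin-bound iron enters cells through the transferrin receptor, is reduced in the endosome and leaves it through a divalent metal transporter, while ferroportin is the exporter and ferritin the store. Both iron regulatory proteins bind hairpins in messenger RNAs when iron is scarce, which stabilises the transferrin receptor transcript and holds back ferritin translation. In blood, reticulocytes still carry transferrin receptors for heme synthesis and lose them as they mature. Iron is recycled by macrophages in tissues.

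Windows directly before a RefSeq transcription start (build GRCm38.p6, 100 bases each) are shown because Hfe and Tfrc were called between doses and Ireb2 and Aco1 were called in opposite directions between collections. They lie at chr13:23710855-23710954 on the minus strand (Hfe), chr16:32608796-32608895 on the plus strand (Tfrc), chr9:54863655-54863754 on the plus strand (Ireb2) and chr4:40143165-40143264 on the plus strand (Aco1). Capitals mark the GC box letters GGGCGG on either strand.
Hfe: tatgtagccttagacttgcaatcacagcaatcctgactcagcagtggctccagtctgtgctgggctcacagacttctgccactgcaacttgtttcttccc
Tfrc: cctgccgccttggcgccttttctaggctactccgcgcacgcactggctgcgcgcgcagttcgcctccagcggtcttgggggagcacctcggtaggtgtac
Ireb2: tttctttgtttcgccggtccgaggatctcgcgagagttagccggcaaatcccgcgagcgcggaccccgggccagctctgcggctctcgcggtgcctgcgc
Aco1: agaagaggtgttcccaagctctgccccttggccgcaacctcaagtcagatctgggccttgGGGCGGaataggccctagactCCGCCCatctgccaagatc

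Of the 10 genes, 8 matched the RefSeq promoter table, all but Slc40a1 and Slc11a2. Over the whole window of 250 bases before and 50 after the start, Hfe held 2 CG dinucleotides, Tfrc 30 at this start, Ireb2 28 and Aco1 14, against a median of 7 over 32851 promoters. The GC box occurred 3 times each for Ireb2 and Aco1 in that window, and in 35.7% of all promoters. Tfrc has a second RefSeq start, not shown above, whose window held the GC box 2 times. Other motifs were searched for on both strands and were in none of these windows. The letters of a GATA site, AGATAA, occurred in 11.2% of all promoters. Those of an E-box, CACGTG, occurred in 7.15% of all promoters. The TATA box letters TATAAA occurred in 13.6% of them. The motifs were chosen with expression results known, and a match is only a run of letters.

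Defining markers of whole blood were present: 8 of 10 listed genes were measured, with means over all arrays between 9.03 for Cd79a and 13.8 for Alas2 on the log2 scale, and the 2 listed globin genes, Hba-a1 and Hbb-b1, had no measured probe set. Markers of tissues at the bleeding site (skin, salivary gland and muscle of the face; 9 of 12 measured) averaged between 4.07 and 4.51 in the 6 groups, against a median of all deposited values of 4.141. Single arrays stood above this, with a highest value per group from 5.03 to 5.55. Array medians ran from 4.05 to 4.22. A gene is called below where its adjusted p is under 0.05 in limma's moderated test, with Benjamini-Hochberg adjustment over 12588 genes.

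The first comparison set each dose against control directly after the exposure. In low-dose blood Hfe rose by 0.59 on the log2 scale, and it was the one member called of 10, beside 1.3% of all tested genes. In high-dose blood none of the 10 was called by limma, beside 0.0238% of all genes, and 3 had an unadjusted p under 0.05: Hfe, Slc11a2 and Aco1. The median log2 difference of the 10 genes was -0.02 at the low dose and -0.02 at the high dose, against 0.0018 and -0.02 over all genes. Both doses were set against the same 7 control arrays.

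Hfe encodes the membrane protein that binds the transferrin receptor and whose loss causes iron overload in hereditary haemochromatosis. After exposure, its log2 values in control, low-dose and high-dose blood had a lowest of 4.65, 5.67 and 5.26, a median of 5.33, 5.90 and 5.57 and a highest of 5.69, 6.10 and 5.94. Low-dose blood had 14 of 15 arrays above every control array, while the high-dose values overlapped both other groups.

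The low-dose mean was 5.89 ± 0.13 (SD, n = 15) against 5.29 ± 0.35 in controls (SD, n = 7), a difference of 0.59 ± 0.11 (SE), or 1.51-fold, with a limma adjusted p of 0.000495. Without any 1 array the adjusted p stayed between 0.000118 and 0.0164. The high-dose difference from control was 0.29 ± 0.11 with an adjusted p of 0.361. A second Hfe probe set did not pass the filter, and its mean over all arrays was 3.91.

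Markers of other cells moved with Hfe. Of 16 monocyte and macrophage markers 14 were measured. In low-dose against control blood 12 of them were higher, 5 were called higher and 0 were called lower. Their mean level ranged from 7.71 to 8.14 against 7.32 to 7.84. All 15 measured B cell markers (16 listed) were higher and 4 were called. Their mean level ranged from 8.01 to 8.94 in low-dose and from 7.05 to 8.92 in control blood, a shift of the mean within the control SD of 0.69. All 14 measured platelet markers (15 listed) were lower and none was called by limma, with a mean level of 9.59 ± 0.17 in low-dose and 9.86 ± 0.15 in control blood. In the fit with 6 marker means as covariates the Hfe difference was 0.14 ± 0.10 with an adjusted p of 0.859, and Hfe was not called. In bulk blood, fewer cells of a type and less RNA per cell cannot be told apart.

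**Figure D1:**
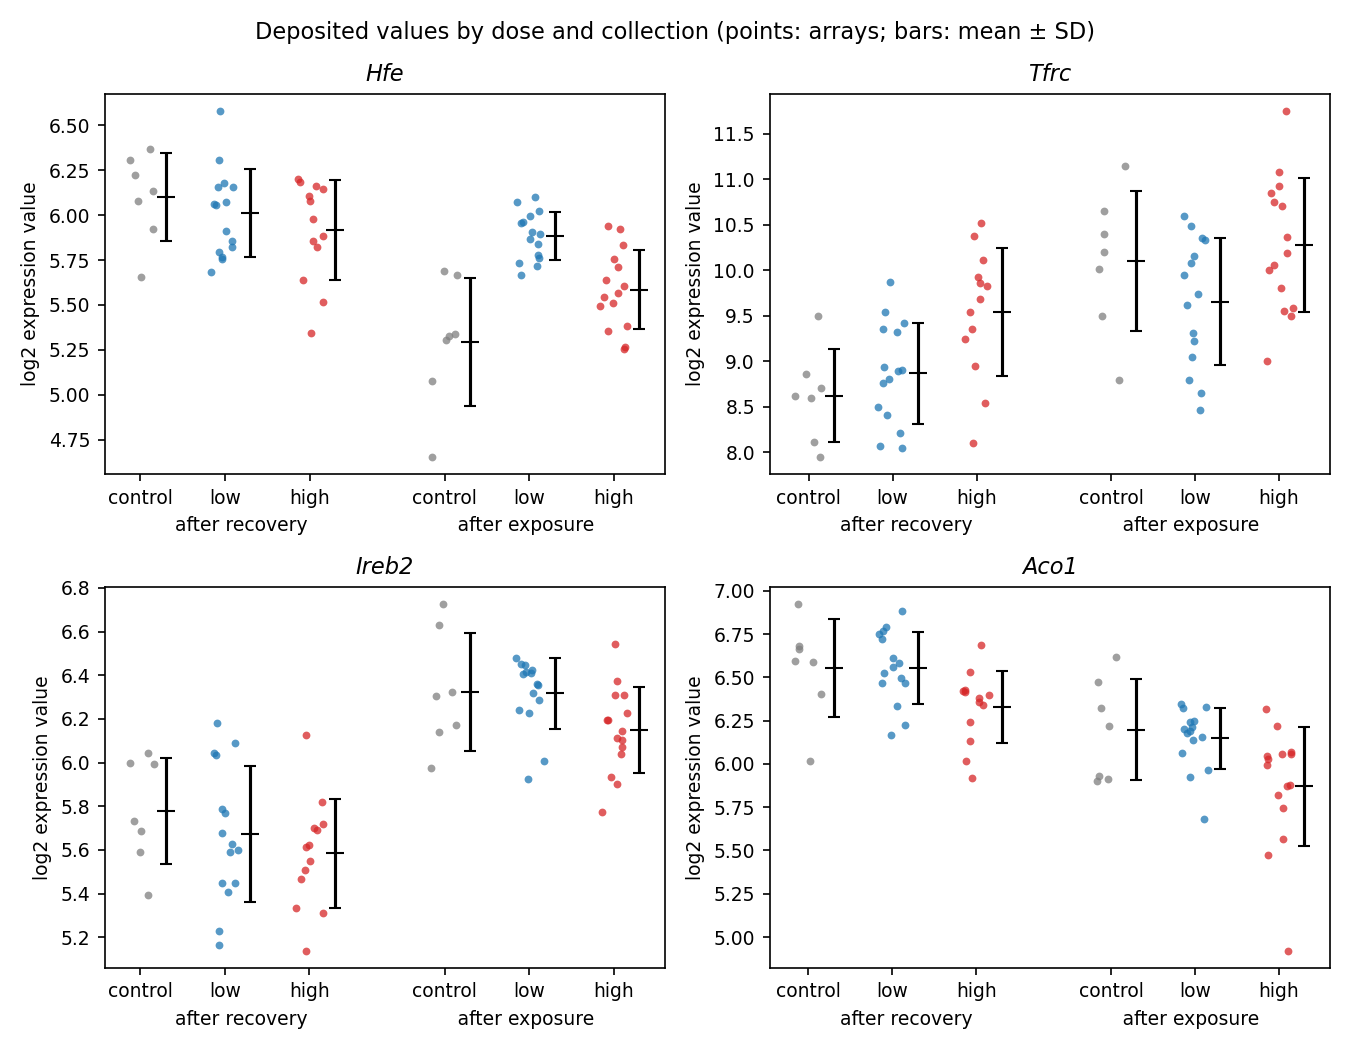
Log2 expression values (y axis) of Hfe, Tfrc, Ireb2 and Aco1 on each array, by dose (control, low and high along the x axis) after recovery (left) and after exposure (right); bars are the mean ± SD. After exposure 14 of 15 low-dose arrays exceed all control arrays for Hfe, and Ireb2 is lower after recovery than after exposure at every dose.

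The other genes of uptake and export stayed short of the threshold against control. Tfrc, the transferrin receptor, averaged 10.10 ± 0.77 in control, 9.65 ± 0.70 in low-dose and 10.28 ± 0.73 in high-dose blood after exposure (SD, n = 7, 15 and 15). The differences from control were -0.45 ± 0.29 at the low and 0.18 ± 0.29 at the high dose, with adjusted p of 0.581 and 0.894. Tfrc varied more between arrays of a group than nearly all other genes: its residual SD of 0.67 lay at the 99.9th percentile of the tested genes, so the 95% interval of the high-dose difference ran from -0.40 to 0.75.

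Slc40a1, the iron exporter ferroportin, averaged 8.17 ± 0.31 in control, 8.50 ± 0.33 in low-dose and 8.35 ± 0.30 in high-dose blood after exposure. Its low-dose difference of 0.33 ± 0.14 had an adjusted p of 0.281, and 5 of 15 low-dose arrays lay above every control. Over 13 alternative fits this Slc40a1 difference ran from 0.16 to 0.48. It was called in 1 of them, with the replicate number as a fixed block (limma adjusted p = 0.0411). Slc11a2, the divalent metal transporter DMT1, which also carries other divalent metals, differed by -0.09 ± 0.06 at the low and -0.15 ± 0.06 at the high dose, with adjusted p of 0.564 and 0.385. Over 13 alternative fits the Slc11a2 high-dose difference ran from -0.155 to 0.02, so its direction depended on the fit. Both reductases were close to control: Steap3, the endosomal ferrireductase of erythroid cells, differed by -0.03 and 0.04, and Cybrd1, the ferric reductase of the duodenal brush border, by 0.06 and -0.09 at the low and high dose. Both were dim, with means of 4.62 for Steap3 and 4.66 for Cybrd1 over all arrays, against a median of all values of 4.141. These means lay at the 19th and 20th percentile of the tested genes.

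The regulators and the store also stayed short of the threshold. Aco1, cytosolic aconitase and the iron regulatory protein IRP1, differed from control by -0.05 ± 0.11 at the low and -0.33 ± 0.11 at the high dose, the second with an adjusted p of 0.329 and 7 of 15 high-dose arrays below every control. Over 13 alternative fits the Aco1 high-dose difference ran from -0.33 to -0.07, and it was called in none. Ireb2, which encodes IRP2, differed by -0.0076 and -0.18. Fth1, the ferritin heavy chain, differed by -0.06 and -0.04, and Ncoa4, the receptor that carries ferritin to the lysosome, by 0.01 and 0.0075.

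**Figure D2:**
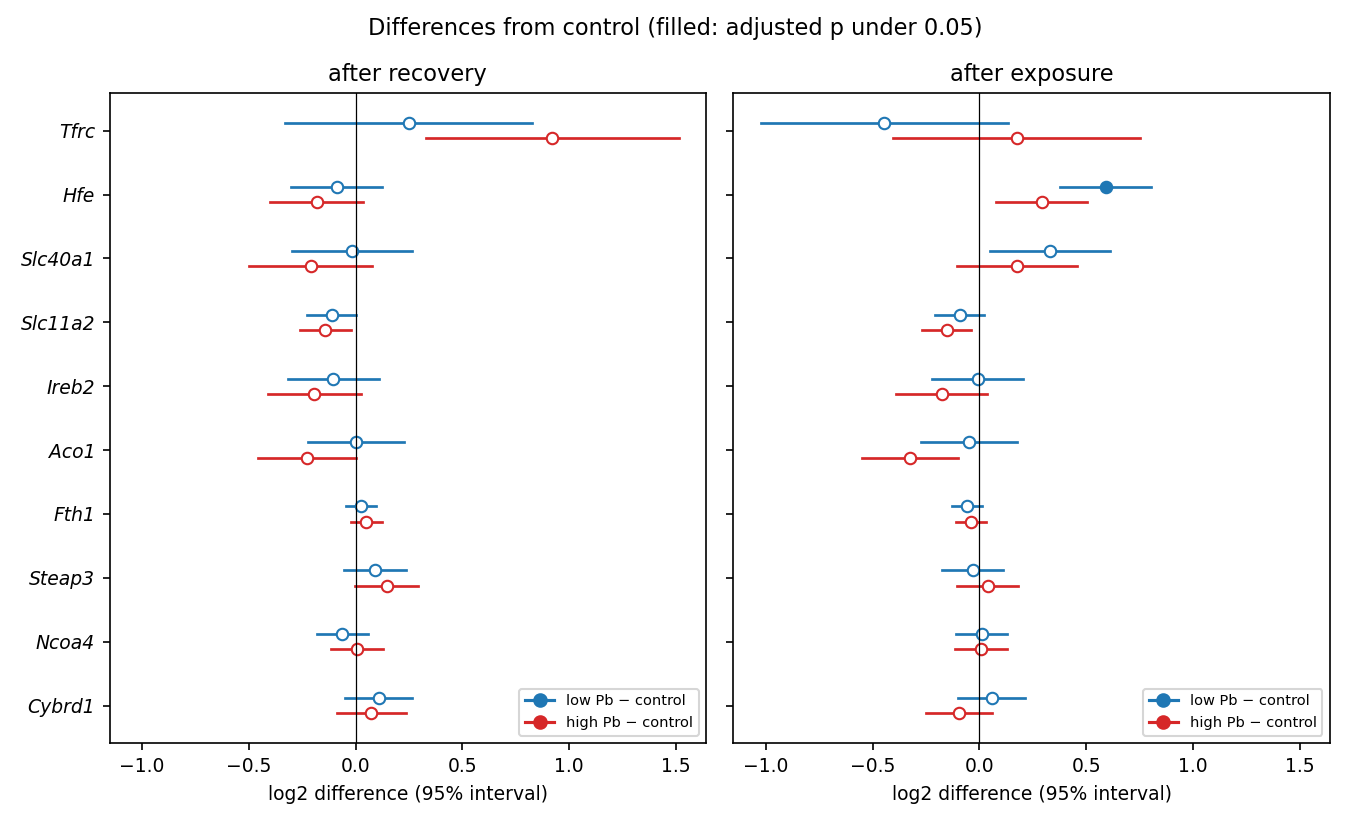
Log2 difference from control (x axis, with 95% interval) of each of the 10 genes at the low and high dose, after recovery (left) and after exposure (right); filled points have an adjusted p under 0.05. Hfe at the low dose after exposure (0.59) is the one filled point.

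The second comparison set the high dose against the low dose after exposure, where 18.7% of all genes and 3 of the 10 members were called. Tfrc was higher in high-dose blood, and Hfe and Aco1 were lower. Tfrc had log2 values of 9.01, 10.19 and 11.75 (lowest, median and highest) in high-dose blood and 8.47, 9.73 and 10.59 in low-dose blood, and 6 of 15 high-dose arrays lay above every low-dose array. The difference was 0.62 ± 0.23 (SE), or 1.54-fold, with an adjusted p of 0.0486.

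The Tfrc call was at the edge of the threshold. It was lost in 30 of 72 fits that each left out 1 array: in the high-dose exposure group replicates 1, 5, 6, 7, 8, 11, 13, 14 and 15, in the low-dose exposure group 1, 3, 4, 5, 7, 11, 14 and 15, in the control exposure group 4 and 5, and in the recovery groups control 2, 3 and 6, low-dose 5, 8, 9 and 12 and high-dose 1, 3, 9 and 10. Over these fits the difference ran from 0.52 to 0.71 and the adjusted p from 0.0197 to 0.101. With no filter on low values the adjusted p was 0.0584, with median centring 0.0608 and with 6 marker means as covariates 0.904 at a difference of 0.13. A second Tfrc probe set, with a mean of 4.69, gave 0.20 ± 0.07.

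Hfe was lower in high-dose than in low-dose blood after exposure by 0.30: the difference was -0.30 ± 0.09 with an adjusted p of 0.0100, and 10 of 15 high-dose arrays lay below every low-dose array. With marker means as covariates it was 0.03 ± 0.08, on the other side of 0, with an adjusted p of 0.916. Aco1 had log2 values of 4.92, 5.99 and 6.32 (lowest, median and highest) in high-dose blood and 5.68, 6.19 and 6.35 in low-dose blood, a difference of -0.28 ± 0.09 with an adjusted p of 0.0237. The groups overlapped, with 3 of 15 high-dose arrays below every low-dose array. The Aco1 call was lost without high-dose exposure replicate 6 or 13, and over all fits without 1 array the difference ran from -0.31 to -0.21 and the adjusted p from 0.00999 to 0.0715. It was also lost with marker means as covariates (-0.09, adjusted p = 0.763) and in its second probe set (-0.08 ± 0.06). The brighter Aco1 probe set is of a kind whose probes can also match other transcripts, by its name.

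Other measures differed between the same groups. The hybridisation controls, transcripts spiked in at the hybridisation step, averaged 10.24 ± 0.40 on the high-dose and 9.81 ± 0.36 on the low-dose arrays (SD, n = 15 each), and 18S ribosomal RNA 7.79 ± 0.99 and 7.00 ± 0.86. Of 15 measured B cell markers 0 were higher and 14 were called lower, with a mean level from 7.44 to 8.43 in high-dose and from 8.01 to 8.94 in low-dose blood. All 14 measured platelet markers (15 listed) were higher and 11 were called, with a mean level from 9.52 to 10.17 and from 9.13 to 9.84. Of 14 monocyte and macrophage markers 4 were higher, 10 were called lower and 1 was called higher, with a mean level from 7.495 to 7.847 and from 7.712 to 8.144. Of 21 measured erythroid markers (24 listed) 14 were higher and 4 were called higher, with a mean level from 8.40 to 9.53 and from 8.63 to 9.21. Within groups Aco1 ran against the hybridisation controls over 72 arrays (r = -0.417, rho = -0.384, permutation p = 0.00057 and 0.00171, adjusted over 50 relations 0.0142 and 0.0285, r = -0.366 without the 2 farthest arrays, -0.246 among recovery and -0.539 among exposure arrays). The interquartile range of relative log expression, the spread of an array's values about each feature's median over all arrays, was 0.316 ± 0.066 on the high-dose and 0.250 ± 0.028 on the low-dose exposure arrays. Its r with Aco1 was -0.129 over 72 arrays (rho = -0.0618, permutation p = 0.314 and 0.624, adjusted 0.624 and 0.734), but 0.447 among recovery and -0.73 among exposure arrays, so the pooled value does not describe either collection. Slc40a1, which was not called here, ran against 18S ribosomal RNA within groups (r = -0.378, rho = -0.375, permutation p = 0.00096 and 0.00152, adjusted 0.016 and 0.0285). Its r was -0.363 without the 2 farthest arrays, -0.248 among recovery and -0.479 among exposure arrays. The part of the 18S values in the calls was not tested.

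The third question was whether differences between doses remained after recovery. None of the 10 genes was called by limma for the high dose against control, the low dose against control or the high against the low dose, where 0.429%, 0% and 0% of all genes were called. At an unadjusted p under 0.05 there were 2, 0 and 2 members, and 1376, 295 and 1765 of all genes. The 2 members were Tfrc and Slc11a2 for the high dose against control and Tfrc and Aco1 for the high against the low dose. Over 13 alternative fits this Slc11a2 difference ran from -0.15 to 0.05 and this Aco1 difference from -0.24 to -0.06.

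Tfrc was the member with the widest separation after recovery. Its lowest, median and highest values were 7.95, 8.62 and 9.50 in control, 8.05, 8.89 and 9.87 in low-dose and 8.10, 9.69 and 10.52 in high-dose blood, and 8 of 13 high-dose arrays lay above every control. The high-dose difference from control was 0.92 ± 0.30, or 1.89-fold, with a 95% interval from 0.33 to 1.51 and an adjusted p of 0.165. Its second probe set gave 0.07. Beside it, 19 of 21 erythroid markers were higher and 2 were called, and their mean level ranged from 8.13 to 9.34 in high-dose and from 8.14 to 8.70 in control blood. All 14 platelet markers were also higher and 4 were called, with a mean level from 9.37 to 10.14 in high-dose and from 9.27 to 9.80 in control blood. All 15 B cell markers were lower and none was called by limma, with a mean level of 8.74 ± 0.19 in high-dose and 9.00 ± 0.23 in control blood. With marker means as covariates the Tfrc difference was 0.50 ± 0.32 with a limma adjusted p of 0.717. The part of any single marker list in the Tfrc difference was not tested.

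Hfe after recovery averaged 6.10 ± 0.24 in control, 6.01 ± 0.24 in low-dose and 5.92 ± 0.28 in high-dose blood. The low-dose difference from control was -0.09 ± 0.11, against 0.59 after exposure. The change in that difference between collections was -0.68 ± 0.15 with an adjusted p of 0.0514, which did not pass the threshold. It passed in 6 of 13 alternative fits, whose adjusted p ran from 0.00187 to 0.998, and in 17 of 72 fits that left out 1 array. For the high dose the change was -0.47 ± 0.15 with an adjusted p of 0.9997. No member was called for either change between collections, beside 0.0238% of all genes at the low and 0.00794% at the high dose. With limma, 1 member had an unadjusted p under 0.05 in each case, Hfe.

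The fourth comparison set recovery against exposure within each dose group, where large parts of the array differed. Of the 10 members 5 were called in high-dose, 4 in low-dose and 5 in control blood, beside 49.2%, 44.1% and 36.1% of all genes, so the members' shares were near those of all genes. Ireb2 and Tfrc fell and Aco1 rose in all 3 dose groups, the unexposed controls included. Hfe rose in high-dose and control blood, Slc11a2 was called higher in high-dose blood by its brightest probe set alone, Ncoa4 fell in low-dose blood and Fth1 fell in control blood. Slc40a1, Steap3 and Cybrd1 were not called in any of the 3 groups.

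Ireb2 was lower after recovery by a similar amount at each dose. Its lowest, median and highest values were 5.40, 5.73 and 6.04 in control blood after recovery, against 5.97, 6.31 and 6.72 after exposure. In low-dose blood they were 5.17, 5.63 and 6.18 after recovery, against 5.92, 6.36 and 6.48 after exposure. In high-dose blood they were 5.14, 5.61 and 6.13 after recovery, against 5.77, 6.14 and 6.54 after exposure.

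The Ireb2 differences were -0.55 ± 0.13, -0.64 ± 0.09 and -0.56 ± 0.09 in control, low-dose and high-dose blood, with limma adjusted p of 0.000391, 6.89e-09 and 2.45e-07. At recovery 4 of 7, 11 of 15 and 11 of 13 arrays lay below every exposure array of the same dose. The call held at all 3 doses in each of 13 alternative fits and in each of 72 fits without 1 array. With marker means as covariates the differences were -0.68, -0.66 and -0.69. Ireb2 has 1 probe set on this array, so no second one could be compared. The alternatives with the mean of probe sets and with the second probe set therefore reused the same Ireb2 values.

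Aco1, the other iron regulatory protein gene, went the other way. Its means were 6.55 ± 0.28, 6.56 ± 0.21 and 6.33 ± 0.21 after recovery in control, low-dose and high-dose blood, against 6.20 ± 0.29, 6.15 ± 0.18 and 5.87 ± 0.35 after exposure. The differences were 0.36 ± 0.13, 0.41 ± 0.09 and 0.46 ± 0.09, with adjusted p of 0.0272, 0.000132 and 3.46e-05. Its second probe set also rose, by 0.26, 0.22 and 0.24. The call in controls was lost without control exposure replicate 5, 6 or 7 or control recovery replicate 5 or 7, with an adjusted p up to 0.0855 and a difference from 0.30 to 0.45 over all such fits. With marker means as covariates no Aco1 difference was called, at 0.12, 0.22 and 0.14.

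Tfrc averaged 8.62 ± 0.51, 8.87 ± 0.56 and 9.54 ± 0.70 after recovery in control, low-dose and high-dose blood, against 10.10 ± 0.77, 9.65 ± 0.70 and 10.28 ± 0.73 after exposure. The differences were -1.48 ± 0.34, -0.78 ± 0.23 and -0.73 ± 0.24, with adjusted p of 0.000404, 0.00412 and 0.00881, and control blood had 5 of 7 recovery arrays below every exposure array. The difference at each exposed dose was not shown to differ from that in controls (change 0.70 ± 0.41 at the low and 0.74 ± 0.42 at the high dose, adjusted p = 0.734 and 0.9997). A second Tfrc probe set fell by 0.29, 0.20 and 0.26. With marker means as covariates the Tfrc differences were -0.43, -0.12 and -0.04, and none was called.

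Hfe rose by 0.81 ± 0.12 in control and 0.33 ± 0.09 in high-dose blood, with adjusted p of 7.57e-07 and 0.00134, and its difference in low-dose blood was 0.13 ± 0.09 with an adjusted p of 0.227. With marker means as covariates the difference was 0.37 in control blood (adjusted p = 0.0483) and 0.17 in high-dose blood, where the call was lost (adjusted p = 0.165). Beside it, 9 of 14 monocyte and macrophage markers were called higher and 1 lower in control blood. Their mean level ranged from 7.76 to 8.07 after recovery and from 7.32 to 7.84 after exposure. In high-dose blood 8 were called higher and 1 lower, with a mean level from 7.72 to 8.01 after recovery and from 7.495 to 7.847 after exposure. In the order of its 6 group means, highest first, Hfe ran from the recovery controls through low-dose and high-dose recovery to low-dose, high-dose and control exposure. The step from low-dose to high-dose exposure, 0.30, was the one step in that order larger than both groups' SDs. For Ireb2 the one such step was 0.37, between high-dose exposure and control recovery. For Tfrc no step between neighbours exceeded the larger SD.

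**Figure D3:**
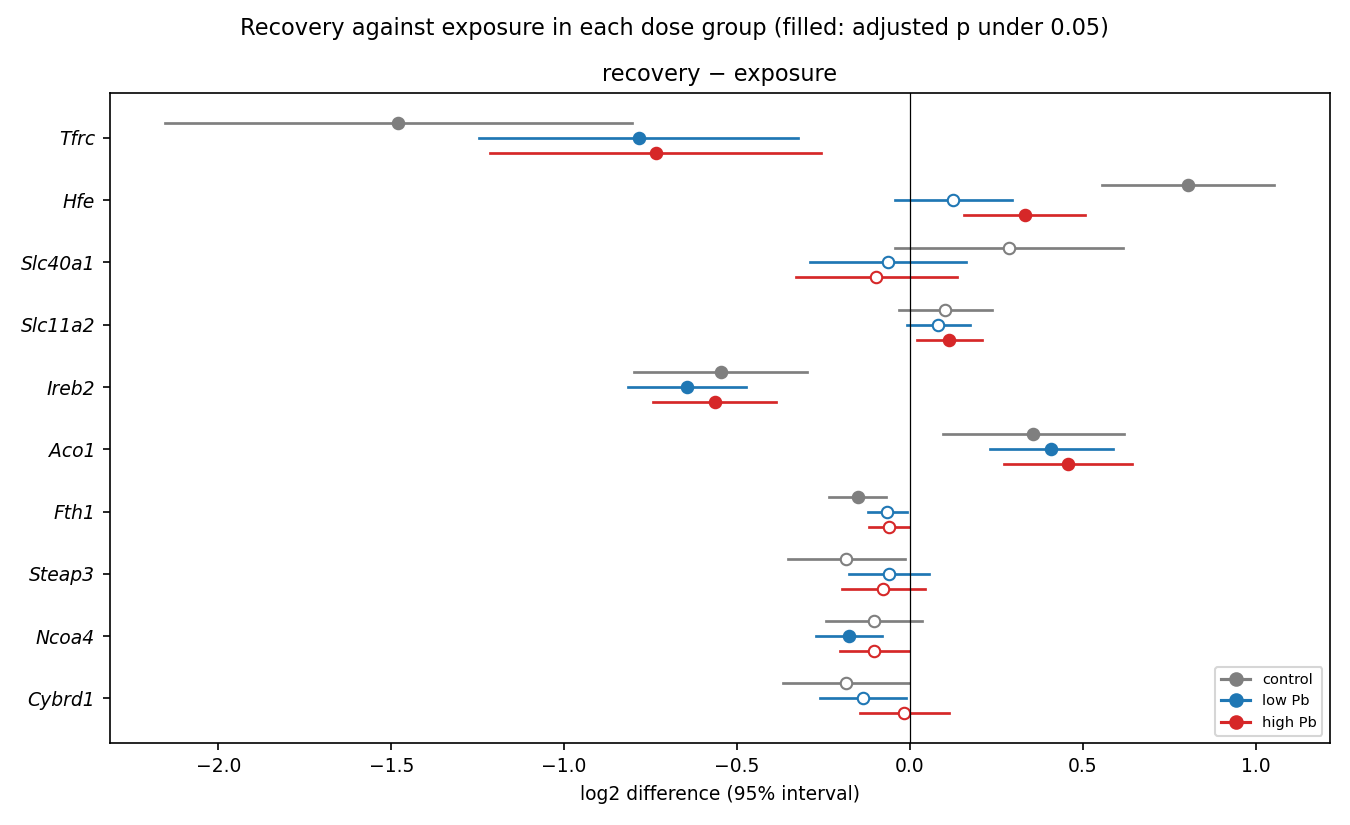
Log2 difference, recovery minus exposure (x axis, with 95% interval), of each of the 10 genes in control, low-dose and high-dose blood; filled points have an adjusted p under 0.05. Ireb2 and Tfrc lie below 0 and Aco1 above 0 at all 3 doses.

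The store and its turnover were read near the bright end of the scale, and by its name the Fth1 probe set can match more than one transcript. Fth1 averaged 13.33 ± 0.05 after recovery and 13.48 ± 0.03 after exposure in control blood (SD, n = 7 each), with all 7 recovery arrays below every exposure array. The difference was -0.15 ± 0.04 with an adjusted p of 0.00303, and the second Fth1 probe set gave -0.06 ± 0.05, which was not called. The call was also lost with marker means as covariates (-0.095, limma adjusted p = 0.206) and with only the compared groups fitted (limma adjusted p = 0.0926). In low-dose and high-dose blood the difference was -0.07 and -0.06. The highest deposited value of any probe set was 14.14, so the room above these values was small. Across arrays, Fth1 moved against the excess of Actb 3′ over 5′ probe sets, a sign of RNA or label length (r = -0.44 and rho = -0.49 over 72 arrays with group means removed, permutation p = 0.00033 and 4e-05, adjusted over 50 relations 0.0142 and 0.002, and r = -0.41 without the 2 farthest arrays).

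Probe sets of a gene did not always give the same answer. Ncoa4 was represented by a probe set with a mean of 12.72, which gave -0.10, -0.18 and -0.10 in control, low-dose and high-dose blood and was called at the low dose (adjusted p = 0.00189). Its second probe set, with a mean of 10.93, fell by 0.88, 1.11 and 0.90, with p adjusted over all 45101 probe sets of 0.000945, 4.05e-09 and 1.22e-06. Slc40a1 gave 0.29, -0.06 and -0.10 with its brighter probe set, and -0.18, -0.26 and -0.44 with the second. Of these second-probe-set values those in low-dose and high-dose blood were called (p adjusted over all probe sets 0.0265 and 0.000186).

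The Slc11a2 call rested on its brightest probe set. That probe set gave 0.11 ± 0.05 in high-dose blood (adjusted p = 0.0406), while the 2 other probe sets that passed the filter gave -0.12 and -0.12, so no direction can be given for Slc11a2. Leaving out any 1 of 12 arrays also ended the call: high-dose exposure replicates 3, 6, 10, 12 and 15 and high-dose recovery replicates 1, 3, 5, 8, 9, 10 and 13, with an adjusted p up to 0.105 and a difference from 0.09 to 0.13 over all such fits. Of the 27 probe sets of the 10 genes, 17 passed the filter and 3 were array controls annotated to Tfrc. These controls were left out, so Tfrc was checked without them.

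**Figure D4:**
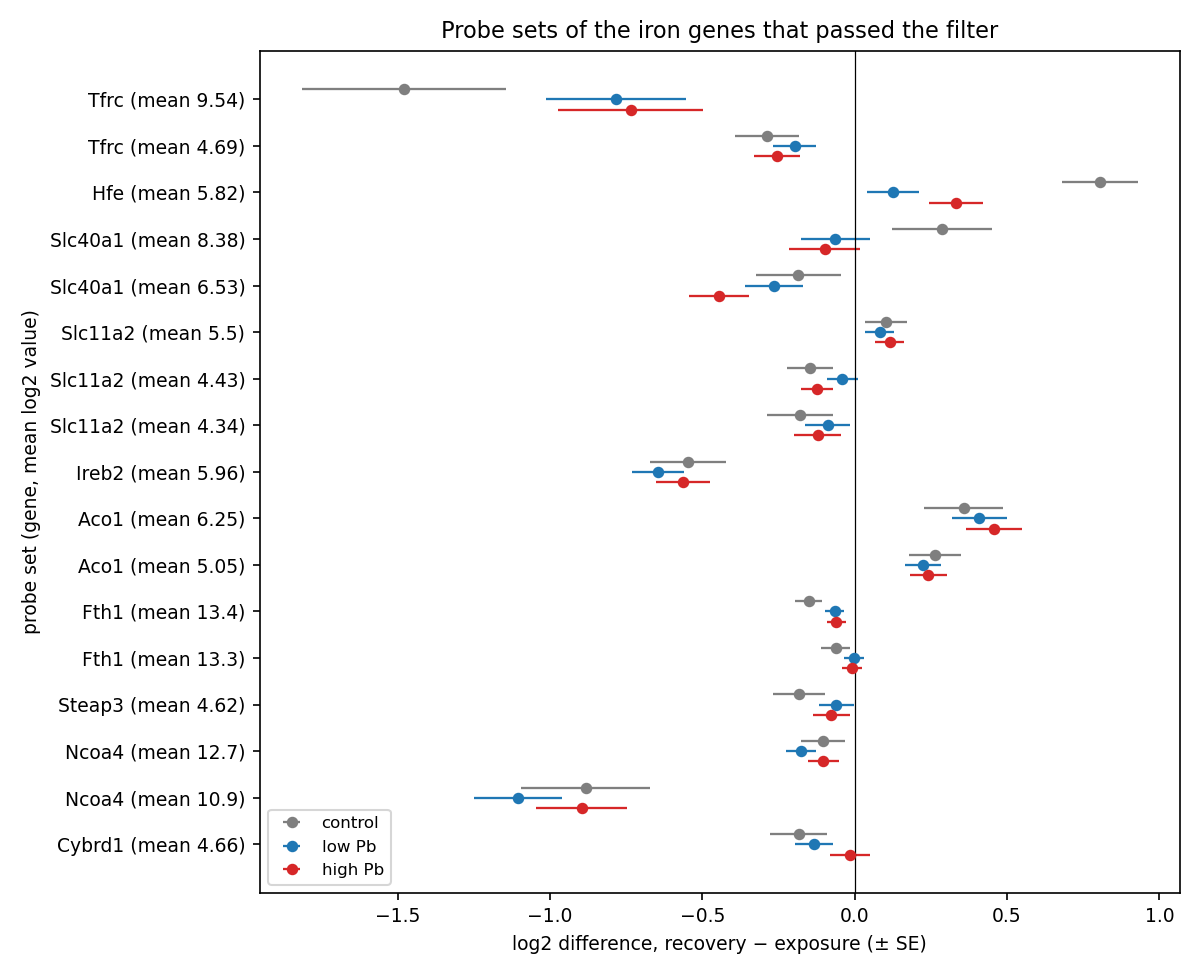
Log2 difference, recovery minus exposure (x axis, ± SE), of the 17 probe sets that passed the filter, each row 1 probe set with its gene and its mean log2 value, in control, low-dose and high-dose blood. The dimmer Ncoa4 probe set lies near -1, away from the brighter one, and the 3 Slc11a2 probe sets lie on both sides of 0.

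Array and cell measures also differed between the collections, and all calls between collections stand beside them. The excess of Gapdh 3′ over 5′ probe sets averaged 0.91 ± 0.12, 0.93 ± 0.11 and 0.84 ± 0.13 after recovery in control, low-dose and high-dose blood, against 0.54 ± 0.13, 0.53 ± 0.13 and 0.56 ± 0.18 after exposure, and that of Actb differed in the same direction. The mean of 18S ribosomal RNA was 6.39, 6.33 and 6.43 after recovery, against 7.00, 7.00 and 7.79 after exposure. Erythroid markers were called lower in 12, 15 and 14 of 21 genes, and B cell markers were called higher in 15, 14 and 15 of 15. The part of these array measures in the calls was not tested, and collection cannot be told apart from the age of the mice, a previous bleed or the processing of the samples.

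Several genes varied within groups with the markers of a cell type, and some shared it. The Pearson r given here are over 72 arrays after subtraction of each array's group mean. The p are from 100000 permutations within groups, two-sided, and adjusted over 100 relations (10 genes by 10 marker lists). Ncoa4 followed erythroid markers (r = 0.764, rho = 0.740), and Slc40a1 followed neutrophil markers (r = 0.776, rho = 0.785). Hfe followed monocyte and macrophage markers (r = 0.598, rho = 0.544), and Aco1 followed T cell markers (r = 0.632, rho = 0.654). All 8 of these coefficients had an unadjusted permutation p of 1e-05, the smallest that they can give, and adjusted p of 2e-04 for r and 0.000143 for rho. Without the 2 arrays farthest from the median of the marker mean, r was 0.733, 0.763, 0.548 and 0.609, in the order given. Hfe, Slc40a1 and Aco1 also followed other lists. Hfe had an r of 0.497 with NK and cytotoxic cell markers, and Slc40a1 0.580 with monocyte and macrophage markers (adjusted permutation p 0.000286 each). Aco1 had 0.502 with B cell, 0.452 with NK and cytotoxic cell and 0.410 with monocyte and macrophage markers (adjusted permutation p 0.000364, 0.000625 and 0.00195).

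The relations of Ncoa4 with erythroid, Slc40a1 with neutrophil, Hfe with monocyte and macrophage and Aco1 with T cell markers were seen in both collections. Among 35 recovery arrays r was 0.806 for Ncoa4, 0.809 for Slc40a1, 0.537 for Hfe and 0.736 for Aco1, against 0.692, 0.739, 0.668 and 0.565 among 37 exposure arrays. Tfrc had its highest r with erythroid markers, at 0.469 (rho 0.436, permutation p = 3e-05 and 0.00017, adjusted 3e-04 and 0.00112), and r was 0.438 without the 2 farthest arrays. Ireb2 had its highest r with T cell markers, at 0.439 (rho 0.460, permutation p = 0.00049 and 0.00013, adjusted 0.00223 and 0.001), and r was 0.456 without the 2 farthest arrays. Cybrd1 also had its highest r with erythroid markers, at 0.411, and Slc11a2 with T cell markers, at 0.382 (adjusted p for r 0.00242 and 0.00554). Negative r were also seen. Cybrd1 had -0.451 with T cell and -0.466 with the defining whole blood markers (adjusted permutation p 0.00111 and 3e-04). Ncoa4 had -0.495 with T cell and Tfrc -0.448 with eosinophil and basophil markers (adjusted permutation p 0.000647 and 0.00106). Steap3 followed erythroid markers at 0.488 and ran against B cell markers at -0.555 (rho 0.491 and -0.455, permutation p for r 5e-05 and 3e-05, adjusted 0.000417 and 3e-04, r without the 2 farthest arrays 0.492 and -0.462). Steap3 and Cybrd1 were read near the median of all values, with means of 4.62 and 4.66 against 4.141. Whether their r reflect expression of these genes in a cell type was not tested.

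**Figure D5:**
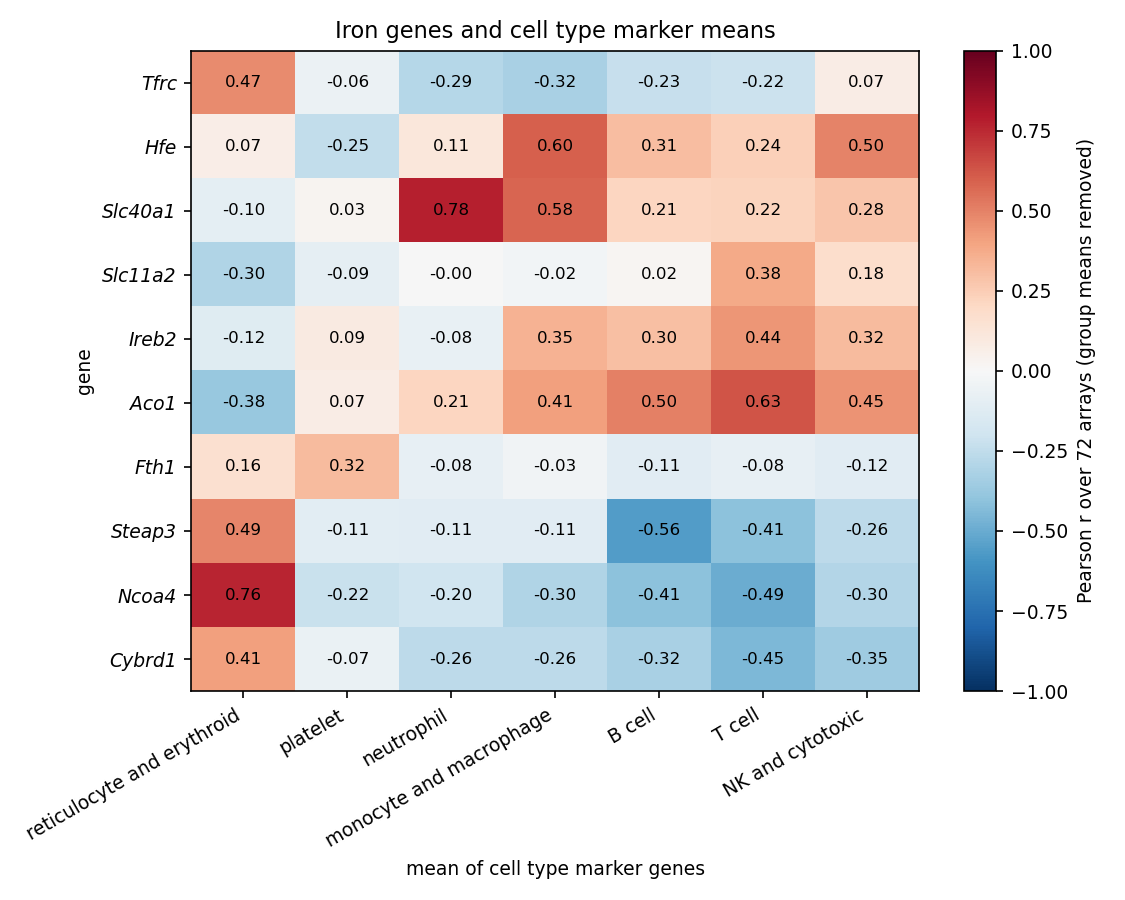
Pearson r over 72 arrays, with group means removed, between each of the 10 genes (rows) and the mean of the marker genes of 7 blood cell types (columns), on a colour scale from -1 to 1. The highest cells are Slc40a1 with neutrophil markers (0.78) and Ncoa4 with reticulocyte and erythroid markers (0.76).

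The genes most like each member, by the same r over 72 arrays, were given as a description. They were Apol8 (0.897), Nenf (0.877) and Birc5 (0.877) for Tfrc, and Treml4 (0.710), Cd68 (0.698, itself a listed monocyte and macrophage marker) and Tnfrsf1b (0.668) for Hfe. For Slc40a1 they were Il1b (0.945), Gcnt2 (0.932) and Trem3 (0.908), and for Ncoa4 Ube2r2 (0.932), Dcaf12 (0.913) and Adipor1 (0.912). For Ireb2 they were Arid4b (0.908), Cpsf6 (0.903) and Strn3 (0.901), and for Aco1 Stx6 (0.860), Reps1 (0.826) and Farsb (0.826). For Slc11a2, Fth1, Steap3 and Cybrd1 the highest r was 0.589, 0.532, 0.607 and 0.644.

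Among the 10 genes, the 45 pairwise r ran from -0.385 (Aco1 and Steap3) to 0.454 (Steap3 and Ncoa4). For Steap3 and Ncoa4 rho was 0.498, with a permutation p of 0.00021 for r and 5e-05 for rho, adjusted over 45 pairs 0.00472 and 0.00225, and r was 0.476 without the 2 farthest arrays. For Aco1 and Steap3 rho was -0.419, with a permutation p of 0.00209 and 0.00078, adjusted 0.0235 and 0.00878, and r was -0.401 without the 2 farthest arrays. Ireb2 and Aco1, which differed in opposite directions between the collections, were positively related within groups (r = 0.377, rho = 0.434, permutation p = 0.00115 and 0.00032, adjusted 0.0173 and 0.0048). Without the 2 farthest arrays r was 0.379, among recovery arrays 0.226 and among exposure arrays 0.568.

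Of 42 further genes of iron handling, 38 had a probe set and 27 were measured. After exposure Lrp1, a receptor for heme-hemopexin complexes among other ligands, rose by 0.44 ± 0.11 in low-dose against control blood (adjusted p = 0.0317), and Bmp2, a ligand that drives hepcidin in the liver, fell by 0.60 (-0.60 ± 0.14, adjusted p = 0.0104). None of the 27 was called in high-dose against control blood. In high-dose against low-dose blood Bmp2 rose by 0.61 ± 0.11 (adjusted p = 4.30e-05) and Slc25a28, the mitochondrial iron importer mitoferrin 2, fell by 0.31 (-0.31 ± 0.07, adjusted p = 0.00222). After recovery none of the 27 was called between doses by limma.

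Between the collections, 3 of the 27 were called higher and 5 lower in control, 5 and 4 in low-dose and 4 and 6 in high-dose blood. Of all genes 36.1%, 44.1% and 49.2% were called, so these counts show nothing particular to iron genes. Slc25a28 rose at all 3 doses, by 0.75, 0.49 and 0.65, and Lrp1 by 0.85, 0.41 and 0.42. Flvcr1, a heme exporter, fell at all 3 doses (-0.38, -0.33 and -0.41), as did Neo1, a hemojuvelin receptor (-0.49, -0.43 and -0.38), and Snx3, which recycles the transferrin receptor (-0.31, -0.25 and -0.22). The median difference of the 27 genes was -0.09, -0.05 and -0.10, against -0.01, -0.0040 and -0.0046 over all genes.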

How the data were processed

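Blood of 72 samples was measured on oligonucleotide arrays. Per the submitters' processing notes, the authors made the deposited log2 values with RMA. Its software and version were not stated, nor its background step. Deposited values start at 0.410. Depth is given by the number of arrays, which limits the precision.

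The values were used as deposited. Groups and replicate numbers came from the titles. Of 45101 probe sets, 64 were array controls, 34945 had 1 symbol in the platform annotation, 932 several and 9211 none listed, and some array controls also stand in these classes. Genes kept 1 probe set each, the one with the highest mean, if it lay above the median of all values, 4.141, in at least 7 arrays. A group-means model over 6 groups (limma 3.58.1, R 4.3.3, statmod 1.5.0, 66 residual degrees of freedom) gave 11 comparisons. The script was tested on simulated data. All 10 genes are named whatever their result. The genes, lists, motifs and tests were chosen with earlier results of these data known, so no list is independent evidence. No 2 arrays held identical values (r 0.958 to 0.995). The labels do not say whether a replicate number marks the same mouse in both collections. With group means removed, r of same-numbered arrays had a median of 0.0357, 0.0734 and -0.000961 in control, low-dose and high-dose mice. Such low r cannot settle this, because samples of 1 mouse taken weeks apart need not be alike. Alternatives covered filter, normalization, probe set, weights, variance model, samples fitted, replicate block, cell marker covariates and leaving out each array. The second probe set of each gene as an alternative was chosen after seeing the data, and genes without a second one past the filter kept their first. The marker covariates are the means of the erythroid, B cell, monocyte and macrophage, neutrophil, T cell and platelet lists.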

Additional observations from a re-analysis of the deposited data

Results flagged for a closer look

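Within 20 groups of 7 control arrays (10 genes, 2 collections), 2 had 1 array far from the others by Dixon's ratio (critical value 0.568), and chance flags about 1 in 20 such groups. Fth1 had its highest value, 13.54, in control replicate 2 after exposure. Its 7 values ran only from 13.45 to 13.54 and were rounded to this precision before the test, so its ratio of 0.667 is coarse. Cybrd1 had its highest value, 4.85, in control replicate 2 after recovery. Without control recovery replicate 2 the Cybrd1 difference between collections in controls passed the threshold, as it did without control exposure replicate 1, with an adjusted p down to 0.0396, against 0.104 with all arrays. The difference was -0.18 with all arrays, and -0.24 at its largest size over all fits without 1 array.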

How the results depend on the processing

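In the low-dose against control comparison after exposure 1 member was called, 2 (Hfe and Slc40a1) with the replicate number as a fixed block and 0 with cell marker means as covariates. For comparisons between doses the fixed block joined equal replicate numbers of different mice, so it marks no real pairing. Between collections it joined arrays of the same dose and number. With marker covariates 0 members were called for high against low dose after exposure (3 otherwise), and 3, 2 and 2 between collections in high-dose, low-dose and control blood (5, 4 and 5 otherwise). For the change of the low-dose difference between collections, 1 member (Hfe) was called with a stricter filter, quantile normalization, cyclic loess, array weights and both the fixed and the random replicate block, against 0. Leaving out 1 array gave 1 to 3 members for high against low dose after exposure, 4 to 6 between collections in high-dose and in low-dose blood, 4 to 7 in control blood and 0 to 1 for that change, and left the counts of the other 6 comparisons as they were. Values that turned direction and were called in either fit were Hfe for high against low dose after exposure with covariates (0.0329), Slc11a2 in high-dose blood between collections with the mean of probe sets (-0.0502) and the second probe set (-0.125), and, with covariates, Steap3 in high-dose (0.194) and low-dose (0.169) and Ncoa4 in low-dose blood (0.0175) between collections. Among all 110 member values, called or not, the sign differed in 20 with covariates, 21 with the mean of probe sets, 20 with the second probe set, 11 with array weights, 5 each with cyclic loess and the fixed block, 4 each with quantile normalization and median centring, and 0 in the other 5 alternatives. Why these values moved was not tested. Of 110 member values, 93 kept their side of the threshold and direction where called with covariates and 101 to 108 in the other 12 alternatives. Same-numbered arrays correlated best with their own number in 0 of 7, 3 of 15 and 1 of 13 control, low-dose and high-dose pairs, and the random block's consensus correlation was 0.0212. The counts over all genes moved more: 164 for low dose against control after exposure (5 with covariates, 1406 with array weights, 35 without control exposure replicate 5, 329 without replicate 3), 3 for high dose against control (2 with a stricter filter, 139 with covariates, 26 without control exposure replicate 6), 2349 for high against low dose (67 with covariates, 3139 with array weights), 54 for high dose against control after recovery (1 with covariates, 426 with array weights, 2 without control recovery replicate 3, 170 without high-dose recovery replicate 2), 0 for high against low dose after recovery (95 with array weights), 6189 in high-dose blood between collections (3654 with covariates), 4543 in control blood (1532 with covariates) and 3 for the low-dose change between collections (0 with covariates, 716 with array weights).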
